A study of Homo sapiens with 10 samples.

Results

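The immediate early and ERK feedback genes are a set of 35 named genes that cells switch on within minutes to hours of growth factor signalling. They were read from arrays of U2OS cells, a human osteosarcoma line, after CDK4 and CDK6 were inhibited for 4 h. The members were fixed by name. Each was represented by the probe set annotated to its symbol alone, which gave 32 measured genes out of the 14232 genes on such probe sets in the table. EGR2, NR4A2 and NR4A3 had no probe set of this kind and were not analysed here. The treated group had received PD0332991 (palbociclib), a drug that blocks the cyclin D partners CDK4 and CDK6, and the control group its solvent DMSO, with 5 biological replicates each. Before this, cells of both groups were seeded at 25% density and kept for 30 h in McCoy medium containing 10% serum. At harvest both groups were rinsed and detached with trypsin before RNA extraction. The labels state a dose of 1 mM, a unit that the arrays cannot check and that is far above the micromolar doses usual in culture. The array names in the labels form 2 sets: array set 1 holds replicates 1 to 3 of both treatments and array set 2 holds replicates 4 and 5 of both. All values are the deposited log2 expression values.

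Growth factors activate receptor tyrosine kinases, which pass the signal through RAS and RAF to the kinases MEK and ERK. ERK activates transcription factors already present in the cell, such as the ternary complex factors that sit with SRF on promoters, and so switches on the immediate early genes without new protein synthesis. Many of these genes encode short-lived transcription factors (the FOS, JUN, EGR, NR4A and KLF families), and others encode inhibitors that close the circuit: MAP kinase phosphatases of the DUSP family, Sprouty and SPRED proteins, and the RNA-decay factor ZFP36. Serum and mechanical stress are textbook inducers of the same genes.

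The promoters of 25 of the 35 genes are in RefSeq's table for GRCh38.p14, as 38 windows that run from 250 bases before a transcription start to 50 bases after it. The CArG box, the site SRF binds, was found in 5.26% of these windows (EGR1 and EGR2), against 1.29% of all 35116 promoter windows. The full cyclic AMP response element TGACGTCA, which CREB binds, was found in 5.26% of the windows (DUSP1 and EPHA2), against 1.85% of all windows. Its core TGACG, on either strand and overlapping the full element where that is present, was found in 44.7% against 24.6%. These were 17 windows of 15 genes, and windows of the same gene can overlap, as those of ETV1 do. The EGR site GCGNGGGCG, on either strand, was found in 23.7% (9 windows) against 9.43%, and the AP-1 site TGANTCA in 2.63% (1 window) against 7.71%. These are matches of letters and show no binding. Sequence outside the windows was not searched, so a gene without a match here, such as FOS for the CArG box, may hold one further away. The promoters below are shown because EGR1 and FOS are the textbook readouts of the pathway, IER2 differed between the array sets together with FOS, and DUSP1 holds the full cyclic AMP element. Each stretch covers 150 bases before the start and the first 10 transcribed bases, read along the gene. Capitals mark CArG boxes and the core TGACG or its reverse complement.
EGR1 (chr5:138465329-138465488, plus strand): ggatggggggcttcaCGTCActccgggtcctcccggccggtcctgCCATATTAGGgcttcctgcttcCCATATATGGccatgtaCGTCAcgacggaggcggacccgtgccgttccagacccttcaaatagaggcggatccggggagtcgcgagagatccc
FOS (chr14:75278678-75278837, plus strand): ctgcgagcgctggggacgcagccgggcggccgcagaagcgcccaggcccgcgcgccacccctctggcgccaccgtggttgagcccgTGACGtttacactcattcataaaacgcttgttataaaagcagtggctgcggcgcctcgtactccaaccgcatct
IER2 (chr19:13150261-13150420, plus strand): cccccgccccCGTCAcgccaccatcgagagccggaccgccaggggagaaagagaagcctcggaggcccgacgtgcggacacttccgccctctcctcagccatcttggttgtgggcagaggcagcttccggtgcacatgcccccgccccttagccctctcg
DUSP1 (chr5:172771186-172771345, minus strand): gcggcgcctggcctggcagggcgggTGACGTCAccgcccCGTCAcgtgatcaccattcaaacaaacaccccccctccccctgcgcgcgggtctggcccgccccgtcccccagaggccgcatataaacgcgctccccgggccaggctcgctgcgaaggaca
The CArG boxes of EGR1 begin 105 and 83 bases before its start, and the core in the FOS promoter begins 64 bases before its start.

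The array medians lay between 6.95 and 7.06. Precision is limited by the number of arrays. DMSO replicate 1 stood apart, with an interquartile range of 3.18 against 3.32 to 3.68 on the other 9 arrays. It was the highest or lowest of the 6 arrays of its set for 81.2% of the members and for 68.7% of all probe sets. Fold changes of members that it moves are therefore also given without it. Treatment fold changes of the other lists are not given without it. Of 7 measured osteoblast and mesenchymal markers, COL1A1, SPARC, VIM and RUNX2 averaged above the array medians in both treatments (12.05, 12.10, 11.77 and 7.65 with PD0332991, and 12.02, 11.97, 11.78 and 7.69 with DMSO). COL1A2, ALPL and SP7 averaged below the medians (6.57, 6.24 and 6.004 with PD0332991, and 6.53, 6.24 and 6.11 with DMSO). Of 4 measured blood markers, PTPRC, CD3E and HBB averaged 3.89, 4.88 and 5.01 with PD0332991 and 3.91, 5.09 and 4.98 with DMSO, while CD14 averaged 6.69 with PD0332991 and 6.75 with DMSO, above the lower quartiles of the arrays (5.05 to 5.44). Of 6 measured epithelial markers, KRT8, KRT18 and KRT19 averaged 11.68, 10.85 and 7.03 with PD0332991 and 11.73, 10.86 and 6.93 with DMSO. CLDN4 and EPCAM averaged 7.32 and 5.88 with PD0332991 and 7.07 and 5.68 with DMSO. CDH1, which encodes E-cadherin, averaged 5.56 with PD0332991 and 5.55 with DMSO. In bulk RNA, fewer cells expressing a gene and less of its RNA per cell cannot be told apart.

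After 4 h of PD0332991, no immediate early or ERK feedback gene passed the test in either direction (limma with array set as a covariate, Benjamini-Hochberg adjusted p under 0.05). Of all 21980 probe sets 0.00910% were called higher and 0.0409% lower. Of the 32 members, 14 were higher and 18 lower by sign, with a median log2 fold change of -0.03, against -0.02 over all probe sets. The smallest adjusted p of a member was 0.9995. At an unadjusted p under 0.05 there was 1 member, KLF6, which is 3.12% of the members, against 4.17% of all probe sets. The fold changes ran from -0.38 for FOSL1 to 0.29 for KLF6, and 18 of 32 were smaller than 0.1 in size. All 32 of the 95% confidence intervals lay within a 2-fold change, and 28 lay within a 1.5-fold change. The others belonged to FOSL1, EGR1, SPRY1 and ZFP36, whose intervals reached -0.80, -0.67, -0.60 and -0.59. On the same arrays 6 genes of the E2F response (E2F2, CCNE1, CCNE2, CDC25A, DTL and MCM10), listed here because they had already been called on these arrays, were lower with a median of -1.05. The direction of that list is therefore no independent evidence. Without DMSO replicate 1 the members were 21 higher and 11 lower by sign with a median of 0.03, and again 0 were called.

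**Figure D1:**
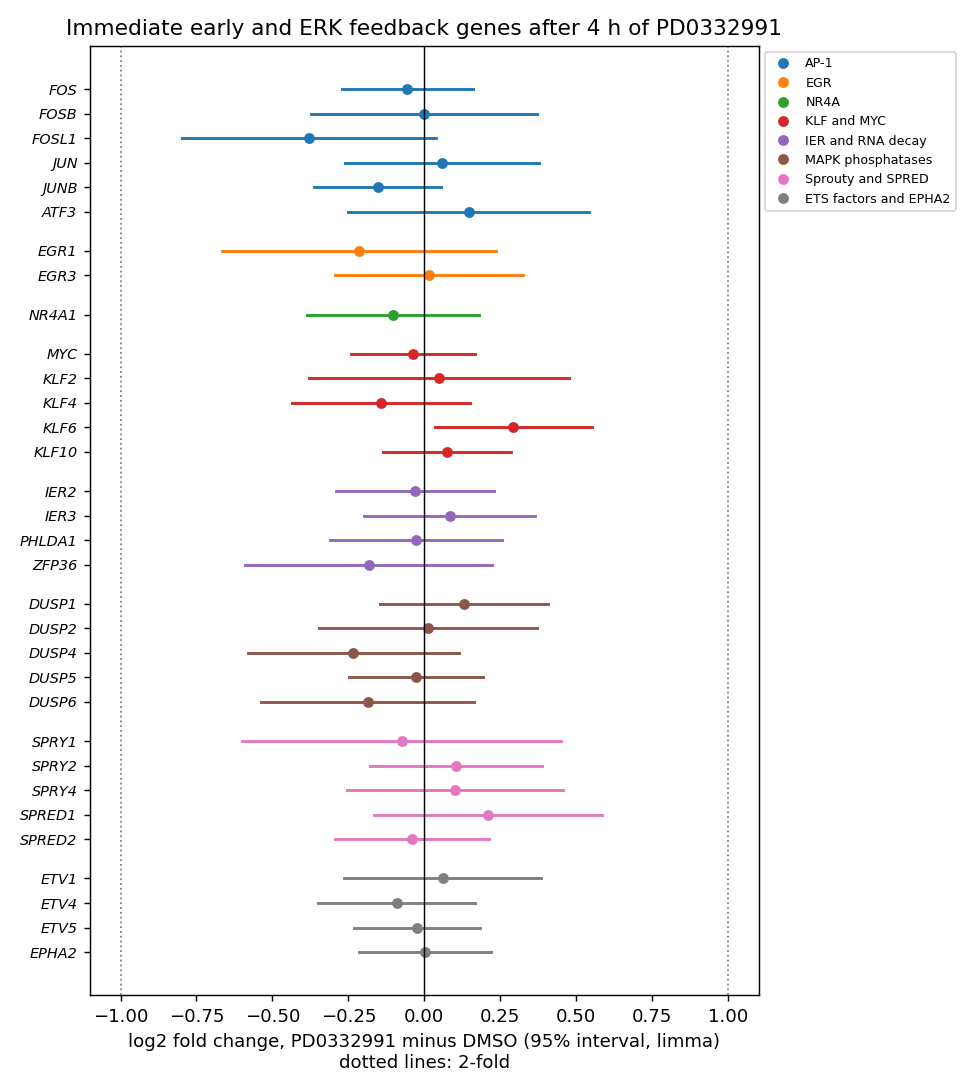
Log2 fold change (horizontal axis) of each of the 32 measured genes, PD0332991 minus DMSO, with its 95% confidence interval from limma, grouped by role. All intervals lie between the dotted lines at a 2-fold change, and the interval of KLF6 alone leaves out 0.

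Of the 6 AP-1 genes, 2 were higher and 4 lower by sign (median -0.03). FOS encodes the founding partner of JUN in the AP-1 factor. FOS stood at 6.03, 6.33, 6.05, 6.73 and 6.90 on PD0332991 arrays 1 to 5, against 6.23, 6.33, 6.23, 6.72 and 6.82 on DMSO arrays 1 to 5. The groups overlapped, with the arrays of set 2 on top in each, and the fold change was -0.06 (95% confidence interval -0.27 to 0.16, limma adjusted p = 0.9995). FOSL1 encodes FRA1, an AP-1 subunit whose level follows sustained ERK activity. FOSL1 stood at 7.98, 8.14, 7.95, 8.56 and 8.47 with PD0332991, against 9.22, 8.44, 8.26, 8.58 and 8.51 with DMSO. In set 1 every treated array lay below every control array, while in set 2 the treatments overlapped, and the control array at 9.22 was DMSO replicate 1. The fold change was -0.38 (-0.80 to 0.04), with -0.62 in set 1 and -0.03 in set 2, and -0.19 without DMSO replicate 1 (limma adjusted p = 0.917). JUN, the main partner of FOS, stood at 10.06, 9.85, 10.08, 9.68 and 9.91 with PD0332991, against 9.41, 9.98, 10.10, 9.83 and 9.95 with DMSO. Its fold change of 0.06 became -0.07 without DMSO replicate 1, which held the value of 9.41. JUNB, an AP-1 subunit that can restrain JUN, stood at 8.73, 8.75, 8.72, 8.94 and 8.86 with PD0332991, against 8.97, 8.77, 8.84, 8.93 and 9.26 with DMSO. All treated arrays of set 1 lay below all controls of set 1, and the fold change was -0.15 (-0.36 to 0.05). FOSB, a close relative of FOS, had a fold change of 0.00 (-0.37 to 0.37), or 0.12 without DMSO replicate 1. The stress-induced factor ATF3 had 0.15 (-0.25 to 0.54), which was 0.07 without DMSO replicate 1 and 0.32 without DMSO replicate 2, its highest array.

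Of the EGR and NR4A genes, EGR3 was higher by sign and EGR1 and NR4A1 lower. EGR1 is a zinc finger factor that ERK induces through SRF and its partners. EGR1 stood at 8.69, 8.64, 8.81, 9.50 and 9.31 with PD0332991, against 9.78, 8.65, 8.74, 9.52 and 9.34 with DMSO. Apart from DMSO replicate 1, whose 9.78 was the highest of all 10 arrays, the treatments matched closely within each set. The fold change was -0.21 (-0.67 to 0.24), and 0.00 without that array. EGR3, a relative with a similar zinc finger domain, had a fold change of 0.02 (-0.29 to 0.33), or 0.10 without DMSO replicate 1. NR4A1, an orphan nuclear receptor induced by serum, had -0.10 (-0.39 to 0.18), which was also 0.00 without DMSO replicate 1.

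The KLF genes and MYC were 3 higher and 2 lower by sign (median 0.05). KLF6 encodes a Krüppel-like zinc finger factor. KLF6 stood at 7.75, 7.75, 7.93, 8.22 and 8.09 with PD0332991, against 7.16, 7.38, 7.59, 8.06 and 8.09 with DMSO. Treated arrays lay above all controls in set 1 and overlapped them in set 2. The fold change of 0.29 (0.03 to 0.55, limma adjusted p = 0.9995) did not pass the adjustment, and it was 0.44 in set 1, 0.08 in set 2 and 0.21 without DMSO replicate 1. MYC, the growth-promoting factor that mitogens keep expressed through G1, stood at 10.02, 9.92, 10.05, 10.07 and 10.16 with PD0332991, against 10.26, 9.99, 9.98, 10.05 and 10.12 with DMSO. These values spanned a narrow range in both groups, and the fold change was -0.04 with the smallest standard error of all members (0.09, n = 5 arrays per treatment), or 0.02 without DMSO replicate 1. KLF4 stood at 4.85, 4.99, 4.49, 5.14 and 4.73 with PD0332991, against 4.93, 5.19, 4.89, 4.91 and 4.99 with DMSO, with a fold change of -0.14 (-0.44 to 0.15). KLF2, a factor of quiescent and endothelial cells, and KLF10, a gene also induced by TGF-beta, had fold changes of 0.05 and 0.07, which were 0.22 and 0.01 without DMSO replicate 1.

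The IER genes, PHLDA1 and ZFP36 were 1 higher and 3 lower by sign (median -0.03). ZFP36 encodes tristetraprolin, which binds AU-rich elements and speeds the decay of immediate early mRNAs. ZFP36 stood at 7.10, 7.11, 6.41, 7.30 and 7.20 with PD0332991, against 7.59, 7.02, 6.81, 7.20 and 7.43 with DMSO. The groups overlapped in both sets, and the fold change was -0.18 (-0.59 to 0.22), or -0.05 without DMSO replicate 1. IER2 and IER3, the immediate early response genes, had fold changes of -0.03 (-0.29 to 0.23) and 0.08 (-0.20 to 0.37), which were -0.04 and 0.18 without DMSO replicate 1. PHLDA1, a pleckstrin homology domain gene induced by ERK, had -0.03 (-0.31 to 0.26), or 0.09 without that array.

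The 5 feedback phosphatases were 2 higher and 3 lower by sign (median -0.03). DUSP6 encodes the cytoplasmic phosphatase that removes the activating phosphates of ERK and is a standard readout of ERK output. DUSP6 stood at 5.32, 5.03, 5.17, 5.74 and 5.27 with PD0332991, against 5.80, 5.26, 5.51, 5.23 and 5.66 with DMSO. The treatments overlapped, in opposite order in the sets (-0.35 in set 1 and 0.05 in set 2), and the fold change was -0.19 (-0.54 to 0.16), or -0.09 without DMSO replicate 1. DUSP4, a nuclear phosphatase of ERK, stood at 5.18, 5.16, 4.96, 5.44 and 5.24 with PD0332991, against 5.81, 5.61, 5.005, 5.41 and 5.31 with DMSO. The treatments overlapped in both sets. The fold change was -0.23 (-0.58 to 0.11), and -0.12 without DMSO replicate 1, its highest array. DUSP1, a nuclear phosphatase that acts on JNK, p38 and ERK, stood at 11.36, 10.90, 11.09, 11.05 and 11.02 with PD0332991, against 10.63, 11.04, 11.10, 10.99 and 11.01 with DMSO. The lowest of these 10 values was again DMSO replicate 1, and the fold change of 0.13 (-0.14 to 0.41) was 0.04 without it. DUSP2 and DUSP5, both nuclear, had fold changes of 0.01 and -0.03, which were 0.13 and 0.04 without DMSO replicate 1.

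The 5 Sprouty and SPRED genes were 3 higher and 2 lower by sign (median 0.10). Sprouty and SPRED proteins inhibit the step between receptors and RAF. SPRY4 stood at 5.17, 5.42, 5.60, 6.06 and 5.49 with PD0332991, against 5.43, 4.85, 5.27, 5.96 and 5.74 with DMSO. The groups overlapped in both sets, with a fold change of 0.10 (-0.25 to 0.46), or 0.15 without DMSO replicate 1. SPRED1, which brings the RAS inhibitor neurofibromin to the membrane, stood at 9.33, 9.35, 9.32, 9.76 and 9.84 with PD0332991, against 8.54, 9.37, 9.55, 9.55 and 9.54 with DMSO. Its fold change of 0.21 (-0.17 to 0.58) was 0.05 without DMSO replicate 1, which held the value of 8.54. SPRY1, SPRY2 and SPRED2 had fold changes of -0.08, 0.10 and -0.04, which were 0.12, 0.14 and 0.04 without that array. KLF4, SPRY1 and ETV1 averaged less than the mean lower quartile of the arrays and are dim. DUSP4, DUSP6, EGR3 and SPRY4 averaged above it but also fell in the dimmest 33.33% of probe sets, which limits what their fold changes can show. ETV1, ETV4 and ETV5 form the PEA3 group of ETS factors, which ERK signalling induces and activates, and had fold changes of 0.06, -0.09 and -0.03, which were 0.11, -0.02 and 0.01 without DMSO replicate 1. EPHA2, a receptor tyrosine kinase gene that ERK induces, had 0.00 (-0.21 to 0.22), or -0.06 without it.

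**Figure D2:**
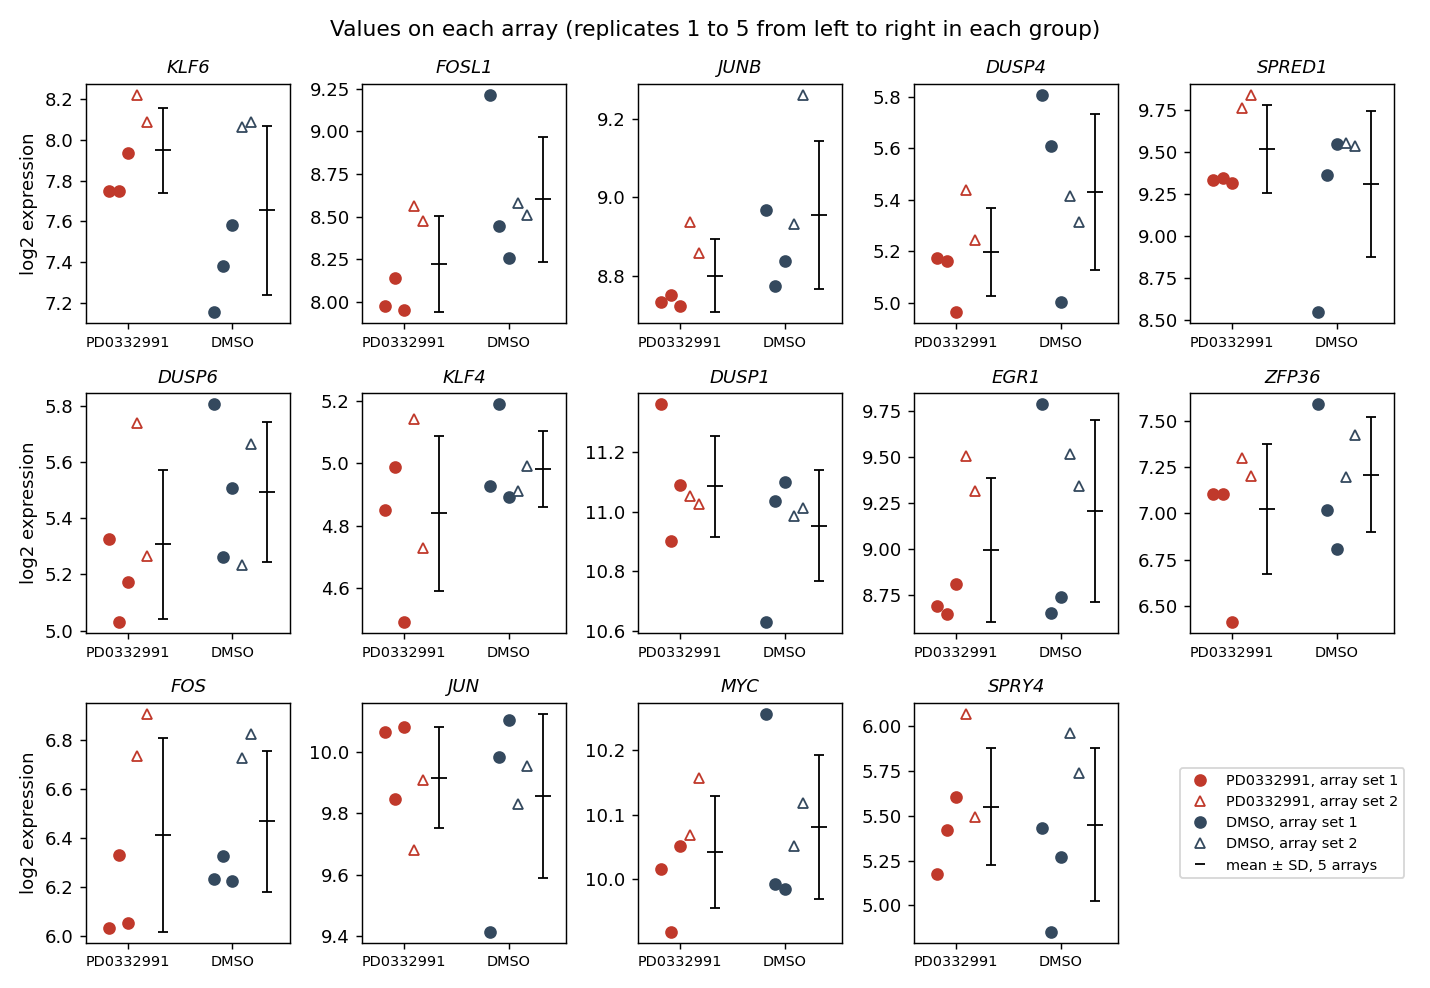
Log2 expression (vertical axes, each on its own scale) on each array for 14 genes, with PD0332991 left of DMSO, filled circles for array set 1, open triangles for array set 2, and mean ± SD of 5 arrays. FOS lies between 6.03 and 6.90 with PD0332991 and between 6.23 and 6.82 with DMSO, and DMSO replicate 1 is the highest array for FOSL1, EGR1, ZFP36, DUSP4, DUSP6 and MYC and the lowest for JUN, SPRED1, DUSP1 and KLF6.

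For the 6 genes described whatever their p, exact 2-sided permutation of treatment within array sets gave p = 0.317 for DUSP6, 0.500 for FOS and EGR1, 0.550 for SPRY4, 0.683 for MYC and 0.800 for JUN, where 120 assignments allow no less than 0.0167. The other genes given array by array were chosen by their small p, so their permutation p is no independent evidence. It was 0.0333 for each of KLF6, FOSL1 and JUNB, and 0.233 to 0.450 for the rest. No member had all treated arrays beyond all controls in both sets, an order that 2.26% of all probe sets showed. The sign of the fold change was the same in both sets for 16 of the 32 genes. For no member was a difference in treatment effect between the sets detected (limma interaction term, smallest adjusted p = 0.9998, with 0 members at an unadjusted p under 0.05).

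In array set 2, 7 members were higher than in array set 1 and 0 were lower (limma with treatment in the model, Benjamini-Hochberg adjusted p under 0.05). The 7 are 21.9% of the members, against 2.57% of all probe sets called higher and 0.965% called lower. By sign, 27 of 32 were higher in set 2 (84.4%, against 59.3% of all probe sets), and the median difference was 0.16, against 0.05 over all probe sets. This test was chosen after the values had been seen. The labels give no difference between the sets beyond the array names, and the part of culture, harvest, labelling or scanning in it was not tested.

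The 7 genes come from 6 of the 8 role groups. IER3, an immediate early gene linked to cell survival, stood at 10.17 and 10.12 with PD0332991 and 10.13 and 10.23 with DMSO in set 2. In set 1 it stood at 9.30, 9.24 and 9.35 with PD0332991 and 9.52, 9.001 and 8.88 with DMSO. The sets did not overlap, and the difference was 0.95, or 1.93-fold (SE 0.13, n = 4 and 6 arrays, limma adjusted p = 0.00767). SPRY2 averaged 6.41 ± 0.21 in set 2 and 5.54 ± 0.18 in set 1 (SD, n = 4 and 6, difference 0.87, limma adjusted p = 0.0112). DUSP5, a nuclear ERK phosphatase, averaged 8.94 ± 0.04 in set 2 and 8.27 ± 0.14 in set 1 (difference 0.67, limma adjusted p = 0.0114). FOS averaged 6.80 ± 0.08 in set 2 and 6.20 ± 0.13 in set 1, a difference of 0.60 or 1.51-fold (limma adjusted p = 0.0151). IER2, NR4A1 and KLF6 were higher by 0.63, 0.59 and 0.52. All of these but NR4A1 had every array of set 2 above every array of set 1, as did EPHA2, which did not pass. This makes 7 of 32 members (21.9%), against 9.42% of all probe sets with no overlap in either direction. KLF6 is thus the member with the smallest treatment p and also one that differs between the sets.

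**Figure D3:**
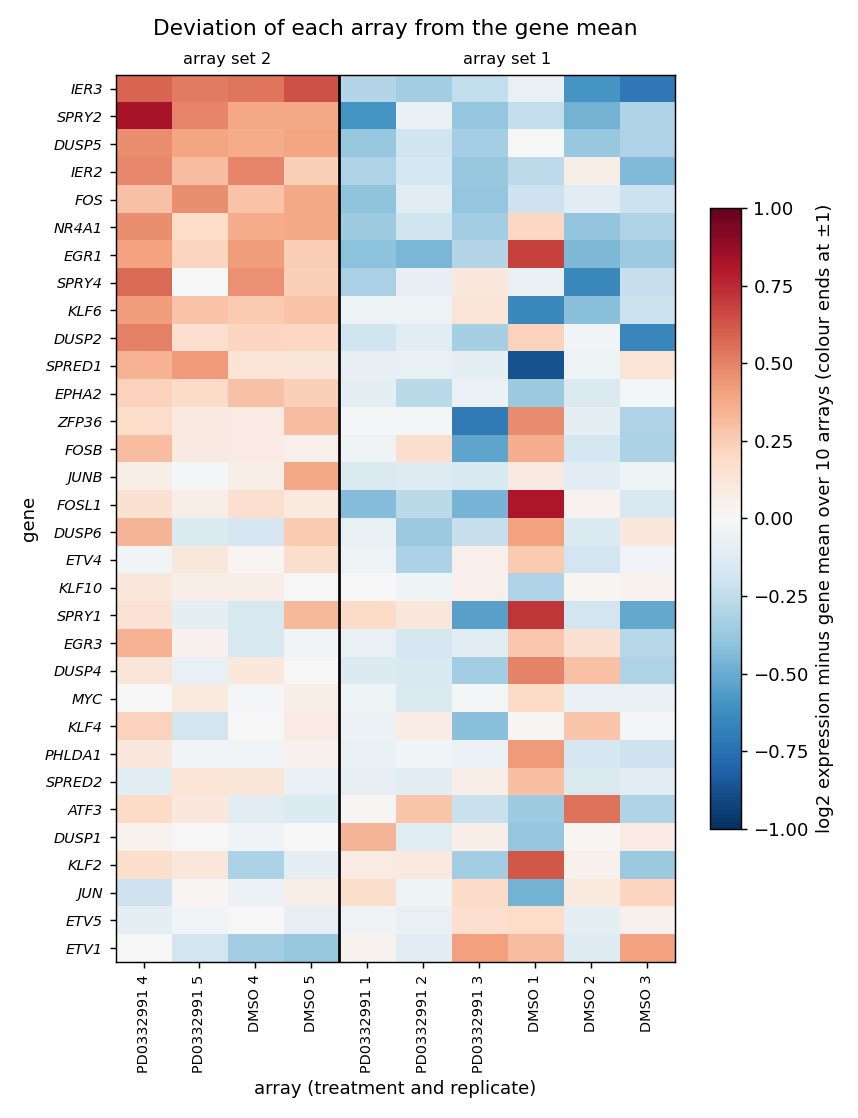
Deviation of each array (columns) from the gene's mean over the 10 arrays (rows, ordered by the difference between the sets), in log2 units with red above and blue below the mean. The upper rows, from IER3 to FOS, are above the mean on all 4 arrays of set 2, and the column of DMSO replicate 1 departs from its neighbours in EGR1, FOSL1, SPRED1 and KLF6.

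Within either treatment alone, with 2 arrays against 3, no member passed (smallest limma adjusted p 0.157 with PD0332991 and 0.494 with DMSO). At an unadjusted p under 0.05, 12 of 32 members were higher in set 2 among PD0332991 arrays, against 7.83% of all probe sets. Among DMSO arrays 7 members were higher and 1 lower, against 4.44% and 3.03% of all probe sets. IER3 differed by 0.85 among PD0332991 arrays and 1.05 among DMSO arrays, SPRY2 by 1.01 and 0.73, and FOS by 0.68 and 0.51. EGR1 differed by 0.70 among PD0332991 arrays and 0.37 among DMSO arrays, where DMSO replicate 1 had the value of 9.78. Leaving that array out brought the number called to 10, where 5.40% of all probe sets were called higher, adding EGR1 (0.71, limma adjusted p = 0.00302), EPHA2 (0.35) and DUSP2 (0.55). Fewer members, and a smaller share of all probe sets, were called higher when any other array was left out. Without an array of set 2, the number called was 2 without PD0332991 replicate 4 (0.446% of all probe sets), 3 without PD0332991 replicate 5 (0.942%), 2 without DMSO replicate 4 (0.364%) and 1 without DMSO replicate 5 (0.346%). Without an array of set 1, it was 4 without PD0332991 replicate 1 (1.40%), 5 without PD0332991 replicate 2 (1.47%), 4 without PD0332991 replicate 3 (1.27%), 5 without DMSO replicate 2 (1.46%) and 5 without DMSO replicate 3 (1.36%). Members with near-equal means in both sets included DUSP1 (difference 0.00), ATF3 (0.02), SPRED2 (0.03), PHLDA1 (0.04), KLF2 (-0.05), KLF4 (0.05) and MYC (0.06). ETV1 stood lower in set 2 by sign (-0.38, limma adjusted p = 0.205).

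**Figure D4:**
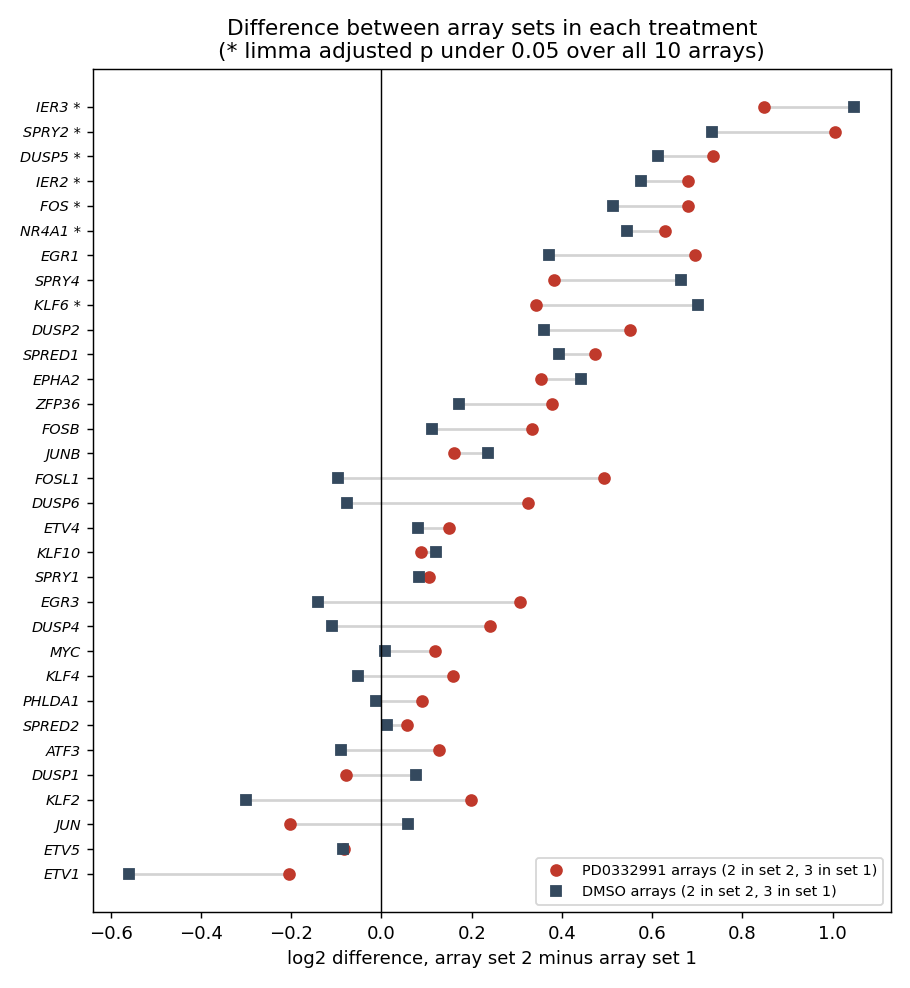
Log2 difference between array set 2 and array set 1 (horizontal axis) for each gene, among PD0332991 arrays (circles) and among DMSO arrays (squares), with stars on the 7 genes called over all 10 arrays. The starred genes lie to the right of 0 in both treatments, between 0.34 and 1.05.

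Neighbouring genes of the pathway gave 0 calls between the treatments. Of 20 measured genes of the ERK cascade from receptors to kinases, 10 were higher and 10 lower by sign (median 0.02). At an unadjusted p under 0.05 there were 2 of these 20, against 4.17% of all probe sets. The receptor gene EGFR stood at 7.37 ± 0.12 with PD0332991 and 7.82 ± 0.24 with DMSO (SD, n = 5), a fold change of -0.45 (limma adjusted p = 0.635) that was -0.46 in set 1 and -0.42 in set 2. RPS6KA5, the kinase MSK1 that acts on CREB and histone H3, had -0.34 and FGFR1 -0.13. The 6 measured transcription factors upstream of immediate early genes had a median of -0.06, with ELK4 at -0.08, CREB1 at -0.09 and ELK1 at -0.10. For ELK1, DMSO replicate 1 stood apart as the highest DMSO array (9.78, next 9.31), which limits what its fold change can show. Among 8 other AP-1 and MAF factors (median -0.07) BATF3 had -0.30, MAFF -0.32 and BATF -0.23. Among 5 EGFR ligands HBEGF had 0.22, TGFA -0.07 and BTC -0.03, and among 7 further MAP kinase phosphatases DUSP16 had 0.33, DUSP10 0.18 and DUSP9 -0.14. None of these passed. The unadjusted threshold was met by 2 of the 8 AP-1 and MAF factors (BATF3 and MAFF) and 0 of the 6 upstream factors. It was also met by 1 of the 5 EGFR ligands (HBEGF) and 1 of the 7 phosphatases (DUSP16). Lists this short cannot set such counts apart from the share over all probe sets.

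Of 12 other measured immediate early genes, 9 were higher and 3 lower by sign with PD0332991 (median 0.05), among them CCN1 at 0.18, CSRNP1 at -0.14 and CCN2 at 0.13. Between the array sets 7 of these 12 were called higher in set 2 and 0 lower (median difference 0.45), against 2.57% higher and 0.965% lower over all probe sets. CCN2, a matricellular gene, was higher by 0.95 (limma adjusted p = 0.00260), SGK1 by 0.72 and RGS2 by 0.71. GADD45B and CSRNP1 were each higher by 0.50, CCN1 by 0.43 and SIK1 by 0.38. HBEGF and EREG, both EGFR ligands, were also called higher in set 2, by 0.96 and 0.70, and so was MAFF, by 0.61. Of the other lists, 0 of 5 heat shock genes, 0 of 7 further MAP kinase phosphatases and 0 of 7 osteoblast and mesenchymal genes were called between the sets, counts that lists this short cannot set apart from the share over all probe sets. In the ERK cascade 2 of 20 were called, both lower in set 2 (GAB1, -0.72, and SOS2, -0.69), and 1 of 6 upstream factors was lower (CREB1, -0.42). Without DMSO replicate 1 the number called higher among the 12 immediate early genes was again 7, where 5.40% of all probe sets were called higher. The heat shock gene HSPH1 (-0.42) and the AP-1 partner gene ATF2 (-0.49) were then also called lower in set 2. The share of all probe sets called lower without that array was not obtained, so these calls cannot be set against it. Of the markers of other cell types, 1 of 6 epithelial genes (CLDN4, 1.09) and 1 of 4 blood genes (HBB, 0.66) were called higher in set 2. In both treatments HBB averaged below the lower quartiles of the arrays (5.05 to 5.44), so low signal limits what its difference can show. The part of these markers in the set difference was not tested.

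**Figure D5:**
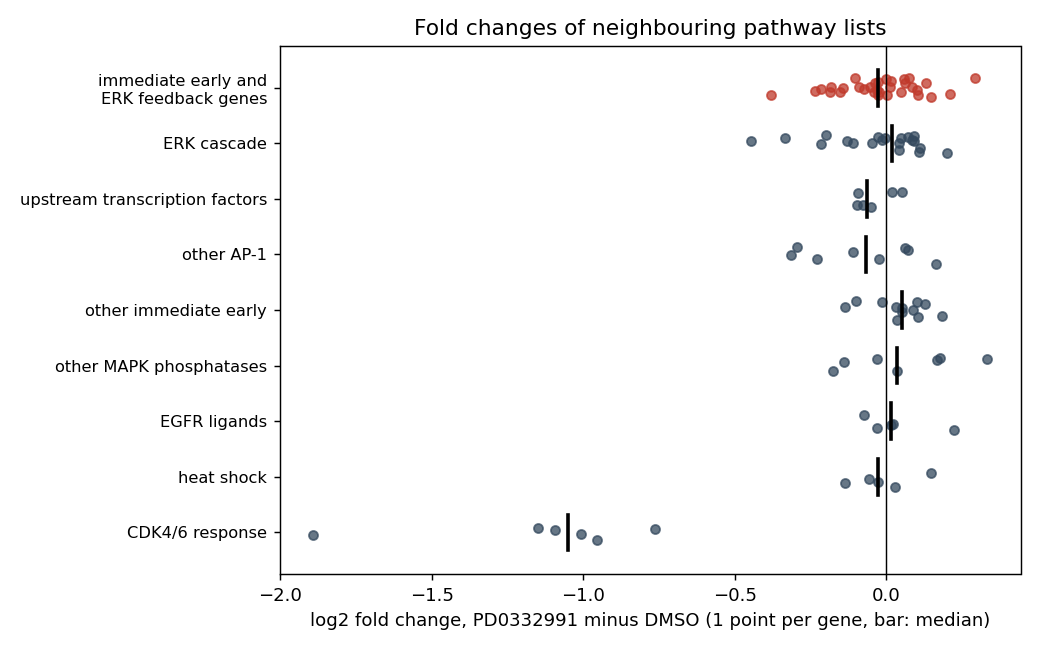
Log2 fold change, PD0332991 minus DMSO (horizontal axis), of each gene in the immediate early and ERK feedback set and in 8 further lists, with a bar at each median. The medians lie between -0.07 and 0.05 except for the 6 genes of the CDK4/6 response, whose median is -1.05.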

How the data were processed

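The values deposited by the authors are log2 expression per gene-level probe set of an Affymetrix exon array, 1 column per array. Per the submitters' processing notes they were made with RMA in Partek on build hg18; software versions and parameters are not given in the sources used here. RMA normalizes between arrays, so a shift shared by all genes would not show. The table holds 21980 probe sets: 14432 carry 1 gene symbol, 2408 several and 5140 none in the platform annotation. The members and lists were chosen with earlier results of these data known.

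The treatment comparison used R 4.3.3 and limma 3.58.1, with lmFit, eBayes and array set as covariate, adjusted over all probe sets. The fit was tested on simulated data. Array sets were compared in the same model. No paper was used. Every measured member is named. The 10 members with the smallest p, and FOS, EGR1, JUN, MYC, DUSP6 and SPRY4, are given array by array, and up to 3 genes with the smallest p in each other list for the treatment. Genes named for the array sets outside this rule were chosen after their values were seen. The labels call the arrays biological replicates. Deviations of same-numbered arrays from the mean of their treatment and set correlated between -0.05 and 0.40. With 2 arrays per treatment in set 2, replicates 4 and 5 must give the same value. These correlations cannot decide whether same-numbered arrays are pairs. The main model did not take the numbers as pairs, and the replicate block among the alternatives does. Promoter sequences are RefSeq's (GRCh38.p14). Alternatives were quantile normalization, a filter on dim probe sets, array weights, trend and robust moderation, no array set, the replicate block, the lowest mean probe set per gene, and leaving out arrays.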

Additional observations from a re-analysis of the deposited data

Results flagged for a closer look

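Single arrays stood apart from the other 4 of their treatment for 8 members (gap to the nearest array above 0.71 of the group's range). DMSO replicate 1 was the lowest array for DUSP1 (10.63, next 10.99), SPRED1 (8.54, next 9.37) and KLF10 (9.72, next 10.03), and among genes of other lists it was the highest for ELK1 (9.78, next 9.31) and the lowest for HSPA8 (13.77, next 14.05). PD0332991 replicate 3 was the lowest array for KLF2 (8.82, next 9.25) and ZFP36 (6.41, next 7.10) and the highest for ETV5 (9.05, next 8.85) and for the cyclin gene CCNE1 (9.41, next 9.18). DMSO replicate 2 was the highest array for ATF3 (7.24, next 6.58), and PD0332991 replicate 4 for PHLDA1 (7.71, next 7.59). These are 11 of 130 groups of 5 arrays in 65 genes, 8.46%, where chance flags about 1 group in 20.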

How the results depend on the processing

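Over 18 alternatives, 10 of which leave out 1 array each, no member passed the treatment test; the smallest adjusted p was 0.5325, for KLF6 with array weights. Of 569 member values 514 kept their sign, and the 55 reversals fell in 18 members, none with a reported fold change beyond 0.21 in size. Fold changes could not move with no array set, the replicate block, trend and robust moderation or the filter on dim probe sets. With the lowest mean probe set per gene they were also the same for every member. The signs kept under these settings are therefore no test of stability. Array weights turned DUSP5 to 0.034, EPHA2 to -0.038, FOSB to 0.16, JUN to -0.069, NR4A1 to 0.0080, PHLDA1 to 0.071 and SPRY1 to 0.14. With both arrays numbered 1 left out, DUSP1 was -0.017, DUSP5 0.059, EGR1 0.0054, EPHA2 -0.067, ETV5 0.023, FOSB 0.10, JUN -0.088, MYC 0.012, NR4A1 0.012, PHLDA1 0.089, SPRED2 0.045 and SPRY1 0.036. Quantile normalization turned EPHA2 to -0.0062 and FOSB to 0.015. Leaving out each array in turn gave -0.11 to 0.13 for DUSP2, -0.061 to 0.040 for DUSP5, -0.31 to 0.0013 for EGR1, -0.072 to 0.10 for EGR3, -0.056 to 0.041 for EPHA2, -0.0092 to 0.14 for ETV1, -0.066 to 0.012 for ETV5, -0.073 to 0.12 for FOSB, -0.087 to 0.050 for IER2, -0.070 to 0.12 for JUN, -0.053 to 0.22 for KLF2, -0.062 to 0.016 for MYC, -0.16 to 0.0029 for NR4A1, -0.084 to 0.089 for PHLDA1, -0.083 to 0.040 for SPRED2, -0.22 to 0.12 for SPRY1 and -0.0056 to 0.21 for SPRY4. It gave 11 to 22 members lower by sign, 0 to 1 higher and 0 to 2 lower at an unadjusted p under 0.05, and 1 to 10 called higher in array set 2. The count higher at an unadjusted p was 0 without array set in the model and with both arrays numbered 1 left out. Members called higher in set 2 numbered 11 with array weights. The share of all probe sets called under array weights was not obtained, so this count is no result about the members. The number was 0 in either treatment alone, where fewer arrays enter. The replicate block in place of array set gave 0 calls and a median of -0.03. The cause of the other changes was not tested. KLF4, SPRY1 and ETV1 are dim. The filter on dim probe sets left 25 members, without these and without DUSP4, DUSP6, EGR3 and SPRY4. Low signal limits what the fold changes of all of these genes can show.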
